A study of Mus musculus with 26 samples.

Results

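The comparison described here is the diet by feeding time interaction in stroke cortex: whether the difference between a high-fat and a control diet, measured 3 days after an experimental stroke, was the same after 15 weeks of feeding as after 6 weeks. It used every library labelled as stroke, 20 of the 26 in the series. All were made from C57BL/6J mice, an inbred strain that gains weight readily on fatty food, and no genetic change or drug is named in the labels. The high-fat diet supplied 60% and the control diet 6% of calories as fat. The 4 groups were 6 weeks of control diet (4 libraries), 6 weeks of high-fat diet (6 libraries), 15 weeks of control diet (4 libraries) and 15 weeks of high-fat diet (6 libraries), and all 4 had focal ischemia. The tissue was cortex holding the core of the stroke and a rim around it. The labels give no age, sex, batch or animal number. The age of the mice and any separate processing of the 2 feeding arms therefore cannot be told apart from the weeks of feeding, and each p-value rests on the spread between libraries alone. Libraries are numbered within a group in the order of the deposit, and the numbers pair nothing. Sham-operated cortex from 3 libraries on each diet at 6 weeks served as a background level. None of the 26 libraries was sham at 15 weeks.

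A high-fat diet is commonly used to produce obesity, insulin resistance and a low level of chronic inflammation in mice. In the days after a stroke, activated microglia and infiltrating macrophages clear dying cells from the lesion, and astrocytes around it become reactive. Neurons that survive near the lesion report their activity through immediate early genes, a group of transcription factors and synaptic regulators that are transcribed within minutes of calcium entry, with no need for new protein.

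The quantity reported for each gene is a difference of differences on the log2 scale: the log2 ratio of high-fat to control at 15 weeks minus the same ratio at 6 weeks. A negative value means that the diet ratio was lower at 15 weeks than at 6 weeks. A shift between the arms that both diets share drops out of it, and a shift in any 1 of the 4 groups does not. Levels are given in CPM, the count of a gene scaled to the size of its library.

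Stroke libraries held 11400882 to 16962682 counts in genes. The label of cortex was checked with the excitatory neuron list, whose 20 members were all tested and whose mean level was 7.45 to 7.62 log2 CPM in the 4 stroke groups, against 7.69 and 7.77 in sham. Slc17a7, the vesicular glutamate transporter of cortical excitatory neurons, lay between 387 and 599 CPM in all 20 libraries. An injury score, built from phagocyte and astrocyte genes so that sham averages 0 and 6-week stroke averages 1, lay between 0.636 and 1.224 in the 10 stroke libraries at 6 weeks and at or under 0.092 in sham. At 15 weeks, 2 libraries lay between these ranges, high-fat library 1 at 0.349 and control library 3 at 0.512. High-fat library 6 at 6 weeks stood apart by its choroid plexus genes and its mitochondrial share of 10.16%. The share of fragments outside genes averaged 29.88% and 30.64% on control and high-fat diet at 6 weeks, and 35.6% and 38.02% at 15 weeks. Its difference of differences was 1.65 percentage points (exact two-sided permutation p = 0.563, adjusted p = 0.563 over 2 shares). That of the mitochondrial share was 0.88 percentage points (exact two-sided permutation p = 0.267, adjusted p = 0.534). Diet labels were permuted within each feeding time, so these p-values are exact only where diet makes no difference in either arm.

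No gene passed the test of the interaction. Of 15992 genes tested by edgeR's quasi-likelihood test, 0 (0%) had an adjusted p under 0.05, and the smallest adjusted p was 0.755. DESeq2 and limma's voom also called 0 genes, and 0 were called with any of the 20 libraries left out. At an unadjusted p under 0.05 there were 754 genes (4.71%), where 800 would be counted with no effect at all. Of these, 365 (2.28%) lay above 0 and 389 (2.43%) below. DESeq2 gave 719 and voom 1112 genes at the same unadjusted threshold, and edgeR gave 495 without 15-week control library 4. Every count of genes at an unadjusted p given for a gene list below is to be read against these shares, and none of these genes passed the test.

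The precision of the experiment limits what the test could call. The median SE of the difference of differences was 0.159, the median half-width of its 95% confidence interval 0.332, and for 80.3% of genes the whole interval lay within 1 log2 unit of 0. The median over all genes was -0.0031.

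The diet ratios of the 2 arms share no library. Their Pearson correlation across genes was 0.295, which is a description, since genes are not independent replicates. They had opposite signs for 6427 genes (40.2%). Among the 754 genes at an unadjusted p under 0.05, 714 had opposite signs, a share that the subtraction itself favours. The 2 diets did not overlap in 350 genes (2.19%) at 6 weeks and in 196 genes (1.23%) at 15 weeks. In 0 genes did they fail to overlap in both arms.

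**Figure D1:**
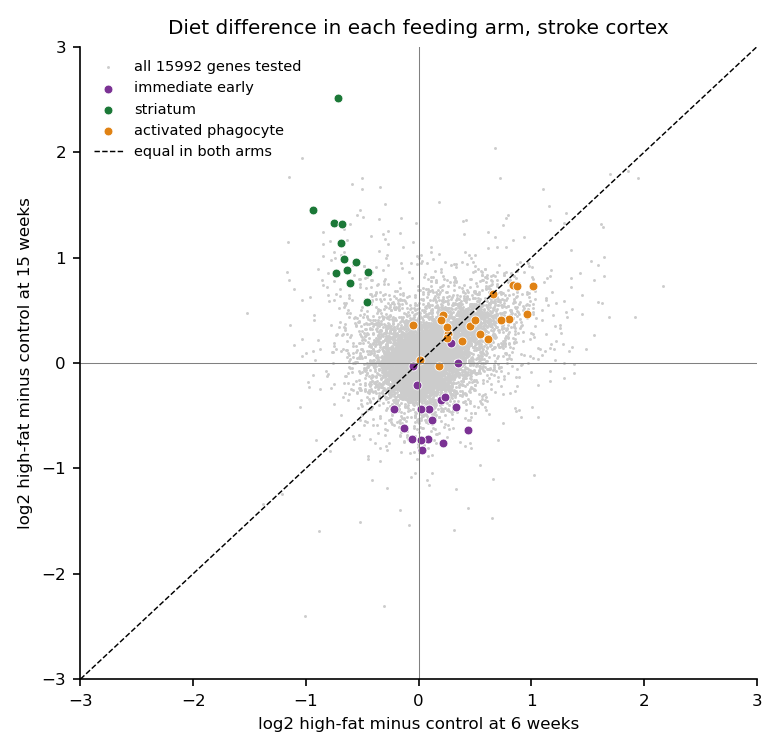
Diet difference at 6 weeks (x axis) against that at 15 weeks (y axis), both as the log2 ratio of high-fat to control, for the 15992 genes tested (grey; 1 gene lies outside the axes) and the members of 3 lists. The dashed line marks equal differences in both arms. Activated phagocyte genes lie near it, while immediate early genes lie below it and striatal genes lie in the upper left, with a negative ratio at 6 weeks and a positive one at 15 weeks.

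The promoters of 4 immediate early genes are shown because these members lie together on the negative side: Egr4 at chr6:85513540-85513839 (minus strand), Junb at chr8:84978699-84978998 (minus strand), Nr4a3 at chr4:48045055-48045354 (plus strand) and Nr4a1 at chr15:101266596-101266895 (plus strand). They are RefSeq sequences of GRCm38.p6, from 250 bases before the transcription start to 50 after it, written 5′ to 3′ on the gene's strand. Capitals mark TGACG and its reverse complement CGTCA, the core of the cAMP response element that the activity-regulated factor CREB binds.
Egr4: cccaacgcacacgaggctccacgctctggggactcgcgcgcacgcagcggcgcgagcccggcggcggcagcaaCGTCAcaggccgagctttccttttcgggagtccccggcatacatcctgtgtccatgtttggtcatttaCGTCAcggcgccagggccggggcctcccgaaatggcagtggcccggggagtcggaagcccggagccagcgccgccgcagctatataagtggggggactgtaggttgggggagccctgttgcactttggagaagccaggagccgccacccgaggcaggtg
Junb: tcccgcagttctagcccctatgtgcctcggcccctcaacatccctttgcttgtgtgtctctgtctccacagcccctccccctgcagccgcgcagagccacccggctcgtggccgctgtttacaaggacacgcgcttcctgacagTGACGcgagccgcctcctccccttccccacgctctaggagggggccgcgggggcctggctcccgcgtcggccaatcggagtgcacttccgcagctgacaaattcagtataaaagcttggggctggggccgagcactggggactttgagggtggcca
Nr4a3: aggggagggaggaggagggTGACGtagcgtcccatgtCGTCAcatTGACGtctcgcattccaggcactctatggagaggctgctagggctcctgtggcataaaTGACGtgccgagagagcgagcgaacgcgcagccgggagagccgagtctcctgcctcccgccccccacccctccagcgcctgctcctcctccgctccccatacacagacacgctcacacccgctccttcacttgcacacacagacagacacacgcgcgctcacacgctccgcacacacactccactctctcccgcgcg
Nr4a1: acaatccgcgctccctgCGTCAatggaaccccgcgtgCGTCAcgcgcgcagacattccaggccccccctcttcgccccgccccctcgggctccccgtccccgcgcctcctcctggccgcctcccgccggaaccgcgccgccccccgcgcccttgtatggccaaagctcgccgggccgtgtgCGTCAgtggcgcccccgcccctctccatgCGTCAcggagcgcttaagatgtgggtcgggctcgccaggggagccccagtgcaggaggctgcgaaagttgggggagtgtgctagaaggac
Egr4 holds 2 such matches, Junb 1, Nr4a3 4 and Nr4a1 4. On either strand, TGACG was found in 20.8% of all 32851 promoter windows of that length and, counted per gene, in 23% of 27025 genes with an entry and in 12 of the 14 immediate early genes with one. The CArG box, bound by serum response factor, was found in 1.63% of windows, in 1.81% of genes and in 1 of the 14 (Egr2), and the EGR site GCGTGGGCG in 0.612% of windows, in 0.707% of genes and in 0 of the 14. The 4 promoters shown were picked and all hold TGACG, so they do not stand for the list. The 12 genes with a match also include Btg2 and Npas4, which missed the unadjusted threshold for the interaction. They do not include Arc, Egr1 or Fosl2, which passed it and either held no match or had no entry. A match describes the letters in the window and no binding was measured, and a link between the motif and the interaction was not tested.

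Immediate early genes had a median diet ratio near 0 at 6 weeks, though Egr4 stood at 0.44, and mostly negative ratios at 15 weeks. All 18 members were tested, 17 lay below 0, and 8 were below 0 at an unadjusted p under 0.05: Egr4, Junb, Nr4a3, Arc, Egr1, Nr4a1, Fosl2 and Fosb. The list median was -0.55, against -0.0031 for all genes, and was made of a median diet ratio of 0.09 at 6 weeks and -0.44 at 15 weeks. None of the 18 passed adjustment over all genes. Members respond to the same signals and are not independent of each other.

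The level of the whole list shows which group stands out. Its mean was 4.28 ± 0.26 log2 CPM (SD, n = 4) on 6 weeks of control diet and 4.38 ± 0.13 (SD, n = 6) on 6 weeks of high-fat diet. At 15 weeks it was 4.79 ± 0.24 (SD, n = 4) on control and 4.33 ± 0.27 (SD, n = 6) on high-fat diet. Sham levels were 4.36 ± 0.19 on control and 4.06 ± 0.46 on high-fat diet (SD, n = 3 each). The mean of the 15-week control group was thus the highest of the 6, and the 15-week high-fat group lay at the level of both 6-week groups. The diets overlapped at 15 weeks, with control libraries from 4.46 to 4.98 and high-fat libraries from 3.98 to 4.62. The highest and lowest of these, control library 3 and high-fat library 1, were the libraries of low injury score.

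Egr4 encodes a zinc-finger transcription factor of the EGR family. It measured 6.0, 3.98, 6.79 and 4.63 CPM in the 4 control libraries at 6 weeks and 5.75 to 9.63 CPM (median 6.96) in the 6 high-fat libraries. At 15 weeks it measured 7.89, 9.61, 7.94 and 8.59 CPM on control and 3.36 to 7.63 CPM (median 5.21) on high-fat diet. The diets overlapped at 6 weeks, with the high-fat mean higher, and did not overlap at 15 weeks, where every high-fat library was below every control library. The log2 ratio was 0.44 at 6 weeks and -0.64 at 15 weeks, a difference of -1.08 ± 0.28 (SE; 95% confidence interval -1.66 to -0.50; edgeR unadjusted p = 0.000908, adjusted p = 0.925).

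Junb, a subunit of the AP-1 transcription factor, was far more abundant. Control libraries held 61.3, 48.0, 58.6 and 42.2 CPM at 6 weeks and 88.3, 98.9, 96.6 and 68.6 CPM at 15 weeks. High-fat libraries held 59.3 to 78.3 CPM (median 62.6) at 6 weeks and 45.4 to 78.3 CPM (median 67.5) at 15 weeks. The high-fat means were 66.2 and 65.7 CPM and the control means 52.5 and 88.1 CPM, and the diets overlapped in both arms. The difference of differences was -0.75 ± 0.20 (SE; 95% confidence interval -1.16 to -0.34; edgeR adjusted p = 0.925).

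Nr4a3, an orphan nuclear receptor, measured 17.9, 16.3, 19.2 and 9.45 CPM on control and 12.1 to 22.3 CPM (median 15.4) on high-fat diet at 6 weeks. After 15 weeks it measured 22.2, 23.7, 32.6 and 24.5 CPM on control and 11.5 to 17.3 CPM (median 14.6) on high-fat diet. The 15-week control libraries were above all 15-week high-fat libraries, and the diets overlapped at 6 weeks. The control means were 15.7 and 25.8 CPM and the high-fat means 16.01 and 14.4 CPM at 6 and 15 weeks. The ratio was 0.03 at 6 weeks and -0.82 at 15 weeks, a difference of -0.85 ± 0.26 (SE; edgeR adjusted p = 0.925).

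Arc, a synaptic protein that removes AMPA receptors from the membrane, measured 181, 236, 208 and 147 CPM on control and 170 to 302 CPM (median 209) on high-fat diet at 6 weeks. In the 15-week arm it measured 263, 318, 389 and 174 CPM on control and 105 to 197 CPM (median 173) on high-fat diet. Control library 4 was within the high-fat range at 15 weeks, and the lowest Arc value of all was that of high-fat library 1, the library with the low injury score. Its difference of differences was -0.97 ± 0.30 (SE; edgeR adjusted p = 0.949), and -0.68 without both 15-week libraries of low injury score.

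Egr1, the most studied EGR factor, had mean levels of 59.2 and 62.8 CPM on control and high-fat diet at 6 weeks and 83.8 and 50.4 CPM at 15 weeks. At 15 weeks its diets did not overlap, with 73.1 CPM as the lowest control value and 61.8 CPM as the highest high-fat value. Its difference of differences was -0.81 ± 0.25 (SE). Nr4a1 differed by -0.75 ± 0.27, with means of 36.5, 36.9, 61.6 and 36.9 CPM in the same order of groups, so only the 15-week control mean was apart. The AP-1 subunits Fosl2 and Fosb gave -0.53 ± 0.21 and -0.49 ± 0.22.

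The remaining 10 members missed the unadjusted threshold. Among them were Egr2 (-0.67 ± 0.32), Egr3 (-0.55 ± 0.27), Ier2 (-0.55 ± 0.27) and Fos (-0.66 ± 0.33). Npas4, a factor specific to neuronal activity, was at -0.20 ± 0.33 and Jun at -0.10 ± 0.16. The only member above 0 was Btg2, at 0.02 ± 0.43. Without both 15-week libraries of low injury score, 6 members were below 0 at an unadjusted p under 0.05 and the list median was -0.43.

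**Figure D2:**
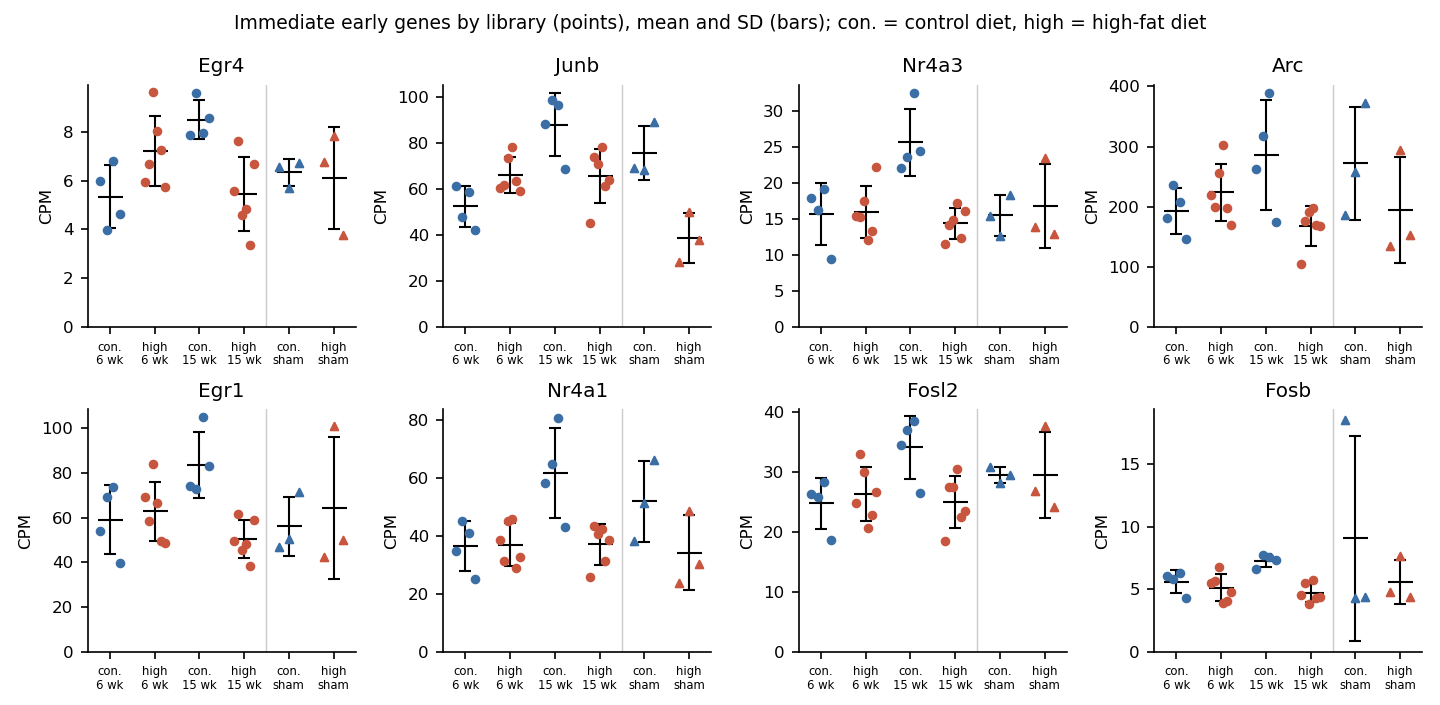
Level in CPM of the 8 immediate early genes at an unadjusted p under 0.05, 1 point per library, with mean and SD, by diet and weeks in stroke (circles) and in 6-week sham (triangles, right of the grey line). In all 8 the highest of the 4 stroke group means is that of the 15-week control diet.

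Nab2, a corepressor that is induced by EGR factors and acts on them, lay on the same side without being a member of the list. Its levels were 34.1, 30.3, 31.3 and 26.5 CPM on control and 31.2 to 34.9 CPM (median 32.4) on high-fat diet at 6 weeks, and 31.1, 33.2, 40.7 and 36.6 against 22.2 to 31.1 CPM (median 25.2) at 15 weeks. Its difference of differences was -0.51 ± 0.13 (SE; edgeR adjusted p = 0.925). Ier5l, a relative of the immediate early gene Ier5, gave -0.88 ± 0.23. Genes induced later by neuronal activity did not share a direction: of 17 tested, 2 lay above 0 (Inhba at 0.84 ± 0.31 and Scg2 at 0.40 ± 0.18) and 3 below 0 (Dusp4 at -0.59 ± 0.21, Cort at -0.57 ± 0.23 and Dusp6 at -0.41 ± 0.18) at an unadjusted p under 0.05, and the list median was -0.04. Dusp4 and Dusp6 encode phosphatases that switch off the ERK kinases, and Inhba encodes a subunit of activin.

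The smallest p of all genes belonged to Adra1d, the alpha-1D adrenergic receptor for noradrenaline. Control libraries at 6 weeks held 9.62, 8.86, 9.17 and 9.52 CPM and high-fat libraries 9.57 to 15.6 CPM (median 12.9). At 15 weeks control libraries held 11.1, 11.4, 10.8 and 13.2 CPM and high-fat libraries 7.99 to 10.6 CPM (median 8.77). High-fat libraries were thus mostly higher than control at 6 weeks, with an overlap of 1 value, and all lower at 15 weeks. The log2 ratio was 0.46 ± 0.12 (SE) at 6 weeks and -0.38 ± 0.11 at 15 weeks. Their difference was -0.83 ± 0.16 (SE; 95% confidence interval -1.17 to -0.50; edgeR unadjusted p = 4.72e-05, adjusted p = 0.755). Over the 35 alternative fits its value lay between -0.90 and -0.72 and its adjusted p between 0.0702 (DESeq2) and 1. Sham cortex held 14 ± 3.33 and 14.4 ± 2.11 CPM (SD, n = 3 each) on control and high-fat diet.

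Fezf2, the transcription factor that specifies the deep-layer neurons projecting out of the cortex, followed the same pattern. It measured 16.7, 17.6, 14.8 and 15.1 CPM on control and 17.4 to 20.8 CPM (median 20.3) on high-fat diet at 6 weeks. At 15 weeks it measured 17.9, 18.3, 20.4 and 24.8 CPM on control and 13.9 to 18.9 CPM (median 17.0) on high-fat diet. The higher diet was the high-fat diet at 6 weeks and the control diet at 15 weeks, with an overlap of the diets in each arm. The diet ratios of the 2 arms differed by -0.59 ± 0.14 (SE; 95% confidence interval -0.88 to -0.30; edgeR unadjusted p = 0.000427, adjusted p = 0.925).

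Of the 20 excitatory neuron genes, 4 lay below 0 and 0 above 0 at an unadjusted p under 0.05, 16 were below 0 in all, and the list median was -0.15. Neurod6, a transcription factor of excitatory forebrain neurons, measured 70.5, 66.5, 71.6 and 72 CPM on control and 72.7 to 94.8 CPM (median 74.8) on high-fat diet at 6 weeks. After 15 weeks it measured 68.3, 62.4, 70.9 and 72.2 against 52.4 to 63.8 CPM (median 58.2). The diets did not overlap at 6 weeks and overlapped at 15 weeks by 1 value of each diet. The difference of differences was -0.38 ± 0.10 (SE; edgeR adjusted p = 0.925). Its relative Neurod2 gave -0.55 ± 0.16, and Cux2, a factor of upper-layer neurons, -0.41 ± 0.18. Tbr1, a deep-layer factor, gave -0.38 ± 0.26, which did not pass the unadjusted threshold. Bcl11b, another deep-layer factor, lay on the other side at 0.42 ± 0.36 and did not pass it either. Its means were 77.9 and 70.6 CPM at 6 weeks and 62.5 and 75.4 CPM at 15 weeks on control and high-fat diet. The diet with the higher mean in each arm was thus the same as for the striatal genes described below. The part of striatal RNA in its value was not tested. Genes that any cortical excitatory neuron expresses at a high level were nearer to 0, with Slc17a7 at -0.15 ± 0.13, Camk2a at -0.07 ± 0.21 and Snap25 at -0.08 ± 0.17. In bulk tissue, fewer cells of a type and less RNA per cell cannot be told apart.

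Further genes named by their p on the negative side act in axon guidance or have less defined roles. Plxna1, a receptor for semaphorins, gave -0.48 ± 0.13, with means of 58.6 and 70.2 CPM at 6 weeks and 76.8 and 65.5 CPM at 15 weeks on control and high-fat diet. Ephb2, a receptor for ephrin-B ligands at synapses, gave -0.47 ± 0.13. Ankrd33b (-0.37 ± 0.10), Sowahb (-0.62 ± 0.17) and Tnks1bp1 (-0.33 ± 0.09), which binds the enzyme tankyrase, complete the 12 lowest by p. Diets did not overlap at 15 weeks for Sowahb, Ankrd33b and Ephb2. All of these had an adjusted p of 0.925 in edgeR.

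Genes of the striatum, the region beneath the cortex, lay together on the positive side, with a wide spread between libraries of the same group. All 12 members were tested, 12 lay above 0, 8 of them at an unadjusted p under 0.05, and the median was 1.62, from -0.67 at 6 weeks and 0.97 at 15 weeks. Their mean level was 4.73 ± 0.58 log2 CPM (SD, n = 4) and 3.90 ± 0.93 (SD, n = 6) on control and high-fat diet at 6 weeks, and 3.34 ± 0.57 (SD, n = 4) and 4.17 ± 1.17 (SD, n = 6) at 15 weeks. Sham levels were 4.27 ± 0.60 and 4.04 ± 0.90 (SD, n = 3 each). Levels ranged from 2.13 to 5.56 within the 15-week high-fat group alone, and the diets overlapped in both arms.

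Drd2, the D2 dopamine receptor of striatal neurons of the indirect pathway, measured 4.74, 12.8, 10.6 and 5.87 CPM on control and 1.01 to 13.3 CPM (median 2.31) on high-fat diet at 6 weeks. In the 15-week arm it measured 1.97, 1.08, 3.65 and 2.84 CPM on control and 0.378 to 12.4 CPM (median 4.8) on high-fat diet. The values of 1 group thus spanned more than the difference between group means. Its difference of differences was 2.09 ± 1.00 (SE; 95% confidence interval -0.02 to 4.20; edgeR unadjusted p = 0.052, adjusted p = 1). Drd1, the D1 receptor of the direct pathway, gave 1.37 ± 0.59, Penk, the enkephalin precursor, 1.83 ± 0.73, and Ppp1r1b, which encodes DARPP-32, 1.32 ± 0.64. Six3, a transcription factor of striatal neurons, gave 3.23 ± 1.32 at levels of at most 2.5 CPM, with libraries at 0 in 2 groups, so that its size rests on few counts. Rarb, a retinoic acid receptor, gave 1.04 ± 0.44.

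A fit with the level of the striatal list as a covariate gives the differences after a linear adjustment for that level. There, 0 striatal genes were above 0 at an unadjusted p under 0.05, and Drd2 stood at -0.17, Penk at 0.21 and Drd1 at 0.04. That list is fitted on its own members, so values near 0 for its members follow from how it is built. The other leading genes are no members of it. Adra1d stood at -0.73, Fezf2 at -0.63, Egr4 at -1.20, Junb at -0.62 and Neurod6 at -0.34, and the immediate early list had a median of -0.51 with 7 genes below 0 at an unadjusted p under 0.05. The covariate was chosen after seeing the data, and the part of striatal RNA in these values was not tested. Leaving out 15-week high-fat library 1, whose striatal level of 5.56 was the highest of all, left 0 striatal genes at an unadjusted p under 0.05, with a median of 1.27. Between 1 and 4 striatal genes remained past that threshold when 6-week control library 2 or 3 was left out, or 6-week high-fat library 2, 4, 5 or 6, or 15-week control library 1, 2 or 4, or 15-week high-fat library 6.

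Inhibitory neuron genes divided. Of 18 tested, 5 were above 0 and 3 below 0 at an unadjusted p under 0.05. Above 0 were Gad2 (0.71 ± 0.24) and Gad1 (0.34 ± 0.13), which make GABA, the neuropeptide genes Tac1 (1.40 ± 0.55) and Penk, and Reln (0.57 ± 0.26). Below 0 were Sstr2, a somatostatin receptor, at -0.40 ± 0.14, and the peptide genes Cort (-0.57 ± 0.23) and Cck (-0.29 ± 0.12). Striatal neurons also express Gad1, Gad2, Tac1 and Penk, and Penk is a member of both lists. With the striatal covariate Gad2 stood at 0.22, Gad1 at 0.12 and Tac1 at 0.21, while Sstr2 stood at -0.44 and Cort at -0.43. The markers of cortical interneuron classes Pvalb (-0.21 ± 0.20), Sst (-0.01 ± 0.14) and Vip (-0.20 ± 0.10) did not pass the unadjusted threshold.

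**Figure D3:**
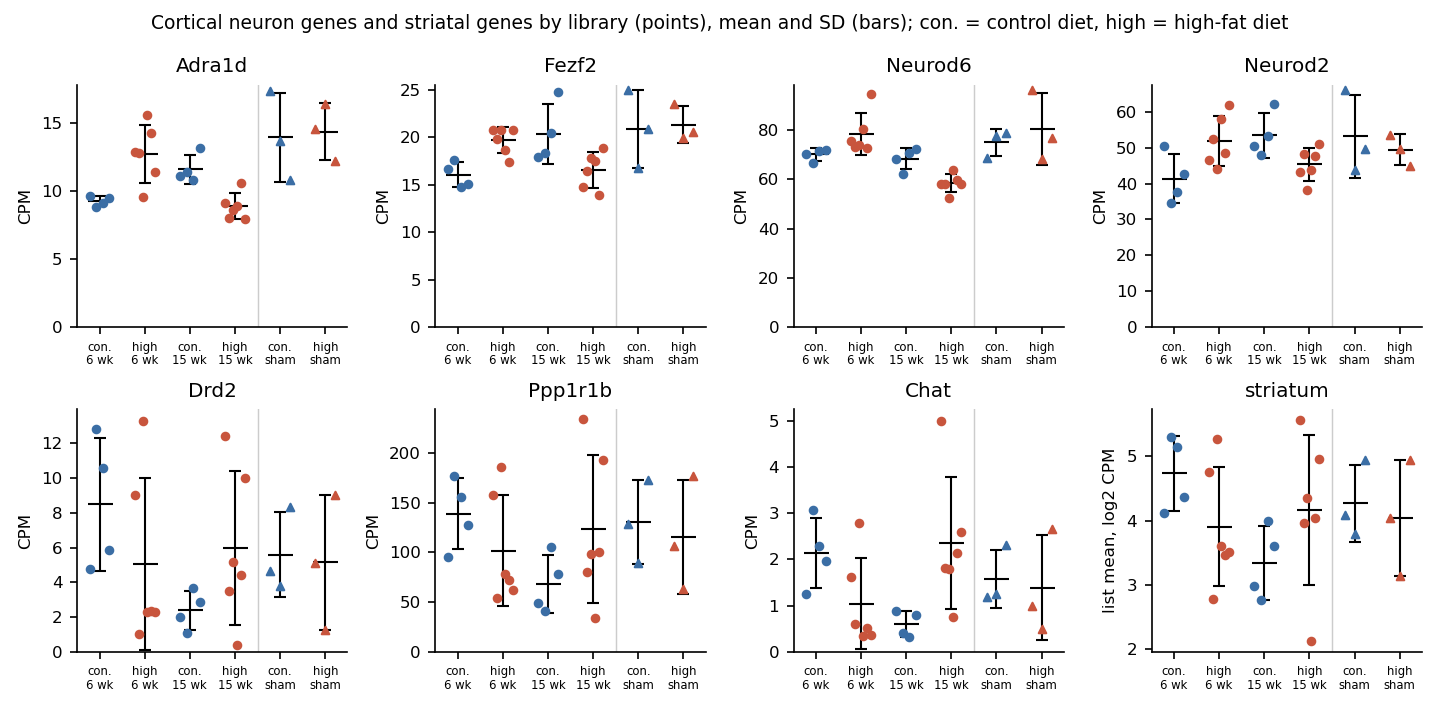
Levels in CPM of 4 genes below 0 (Adra1d, Fezf2, Neurod6, Neurod2) and 3 striatal or cholinergic genes above 0 (Drd2, Ppp1r1b, Chat), and the mean log2 CPM of the striatum list, 1 point per library with mean and SD. Stroke libraries are circles and 6-week sham libraries triangles. The upper panels show a high-fat group above control at 6 weeks and below it at 15 weeks, and the lower panels show the reverse with a wide spread within each group.

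On the positive side, the smallest p belonged to Ap1s2, a subunit of the clathrin adaptor that sorts cargo at the trans-Golgi network. It measured 41.9, 45.5, 50.8 and 47 CPM on control and 34.7 to 47.2 CPM (median 38.5) on high-fat diet at 6 weeks. At 15 weeks it measured 35.0, 34.8, 34.5 and 29.2 CPM on control and 38.9 to 57.5 CPM (median 41.5) on high-fat diet, with no overlap. The highest value, 57.5 CPM, was that of high-fat library 1, and the next was 43.8 CPM. The diet ratios of the 2 arms differed by 0.63 ± 0.15 (SE; 95% confidence interval 0.32 to 0.93; edgeR unadjusted p = 0.000368, adjusted p = 0.925), 0.52 without that library and 0.51 with the striatal covariate.

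Pde1c, a calmodulin-dependent phosphodiesterase, measured 16.6, 20.8, 19.7 and 16.7 CPM on control and 13.3 to 17.7 CPM (median 16.3) on high-fat diet at 6 weeks. After 15 weeks it measured 14.9, 12.6, 15.9 and 13.9 against 16.2 to 26.8 CPM (median 19.4), and the diets did not overlap. The difference of differences was 0.73 ± 0.18 (SE; edgeR adjusted p = 0.925). Its value was 0.41 with the striatal covariate.

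Ecel1, a membrane endopeptidase that injured neurons induce, was measured at low levels. Its means were 5.0 ± 0.33 and 3.0 ± 0.80 CPM at 6 weeks (SD, n = 4 control and n = 6 high-fat) and 2.36 ± 0.42 and 4.69 ± 2.37 CPM at 15 weeks (SD, n = 4 and n = 6). The diets did not overlap at 6 weeks, and the 15-week high-fat libraries ran from 1.29 to 7.59 CPM. Its difference of differences was 1.74 ± 0.45 (SE; 95% confidence interval 0.79 to 2.68; edgeR adjusted p = 0.925), and 1.03 with the striatal covariate. The other 12 tested genes of neuronal injury and axon regrowth did not pass the unadjusted threshold, among them Atf3 at -0.19 ± 0.62 and Gap43 at 0.22 ± 0.14. Chat, the acetylcholine-synthesising enzyme of cholinergic neurons, had a value of 2.98 ± 0.80 at mean levels of at most 2.35 CPM in the 4 groups, and 1.56 with the striatal covariate.

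The other genes named on the positive side lay between 0.22 and 0.81. Rps6ka6, a kinase of the RSK family, gave 0.81 ± 0.22, with means of 8.16 and 6.01 CPM at 6 weeks and 5.82 and 7.47 CPM at 15 weeks. Fermt2, which activates integrins, gave 0.22 ± 0.06 with no overlap of the diets at 15 weeks. Selenot, a selenoprotein of the endoplasmic reticulum, gave 0.25 ± 0.07. Cep70, a centrosomal protein, gave 0.44 ± 0.12 and Jade3, part of a histone acetyltransferase complex, 0.36 ± 0.10. Fam102b (0.45 ± 0.13), Fam173b (0.44 ± 0.13), Heatr6 (0.33 ± 0.10) and Ankrd28 (0.28 ± 0.08) complete the 12. Fam102b stood at 0.25 with the striatal covariate.

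**Figure D4:**
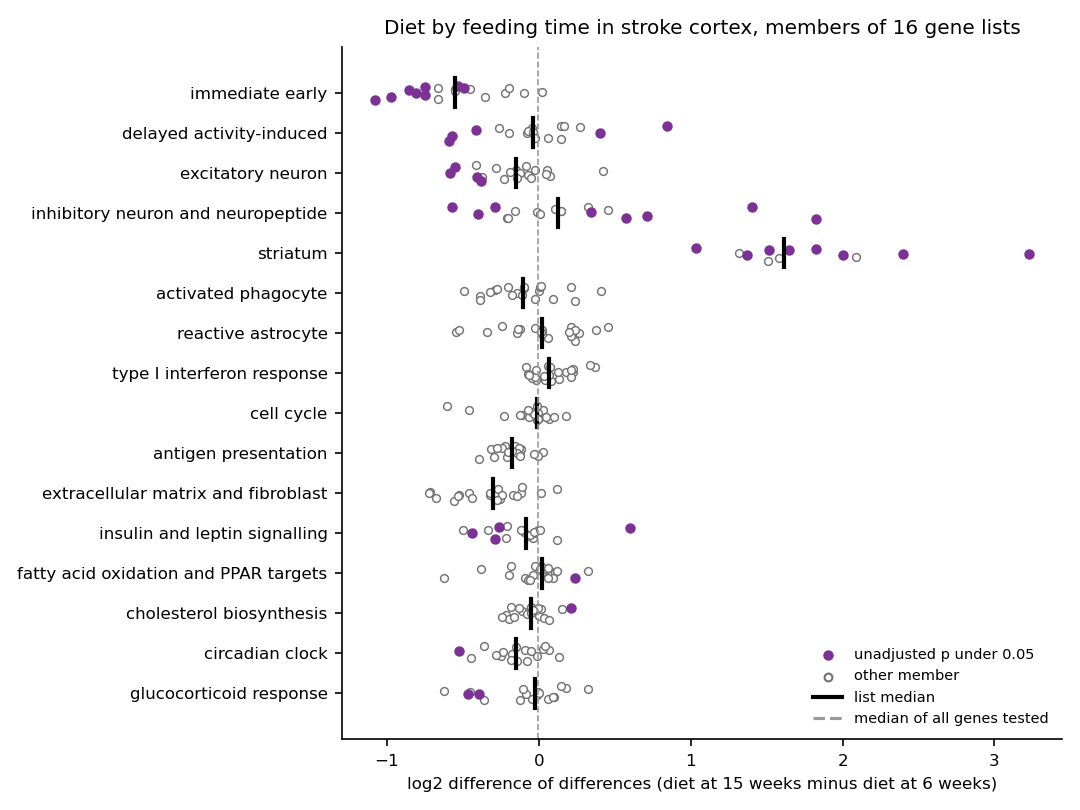
Log2 difference of differences (x axis) of the members of 16 gene lists, 1 point per gene, filled where the unadjusted p is under 0.05, with the median of each list as a bar and that of all genes tested as a dashed line. The immediate early list has the lowest median shown (-0.55) and the striatum list the highest (1.62), and no point passed adjustment over all genes.

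Injury and inflammation lists had positive median diet ratios in both arms. The members chosen for display with their SE had SEs of 0.51 to 0.98 for their difference of differences. Some other members had smaller SEs, such as Apoe (0.17) and Col6a2 (0.21). Of 20 activated phagocyte genes, 7 lay above 0 and 13 below, and 0 passed the unadjusted threshold. Lpl, the member with the smallest p, gave 0.41, between 0.29 and 0.52 with a library left out. It stood at 0.14 with the striatal covariate. The list median was -0.10, from a diet ratio of 0.48 at 6 weeks and 0.38 at 15 weeks, and it lay between -0.42 and 0.10 with a library left out. Spp1, which encodes osteopontin and is among the strongest genes of phagocytes in injured brain, measured 298, 692, 478 and 105 CPM on control and 366 to 971 CPM (median 745) on high-fat diet at 6 weeks. In the 15-week arm it measured 968, 751, 89.4 and 722 CPM on control and 28.4 to 1350 CPM (median 963) on high-fat diet, against at most 15.6 CPM in sham. The lowest value in each 15-week group was that of the library of low injury score. The diet ratios of the 2 arms differed by -0.39 ± 0.98 (SE; 95% confidence interval -2.44 to 1.67), so that interactions of over 2-fold in either direction lay within the interval.

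Gfap, the intermediate filament of reactive astrocytes, gave -0.12 ± 0.51 (SE; 95% confidence interval -1.20 to 0.95). It measured 549, 913, 731 and 578 CPM on control and 809 to 950 CPM (median 856) on high-fat diet at 6 weeks, and 801, 901, 311 and 812 against 181 to 1170 CPM (median 873) at 15 weeks. Without 15-week high-fat library 1 its value was 0.07. Reactive astrocyte genes had a median of 0.02 (0 of 20 at an unadjusted p under 0.05), type I interferon response genes 0.07 (0 of 22), cell cycle genes -0.01 (0 of 20), monocyte and macrophage genes -0.06 (0 of 17), and homeostatic microglia genes 0.00 (0 of 12). In the interferon list the diet ratio had a median of 0.55 at 6 weeks and 0.60 at 15 weeks, and Mx1, an antiviral GTPase, gave 0.37 ± 0.59. Without 15-week control library 1 the interferon list median was 0.76 and Mx1 stood at 1.01, and without 15-week control library 3 they were -0.14 and 0.12. The direction of the interferon median therefore rests on single libraries. The monocyte and macrophage median turned to 0.64 and the reactive astrocyte median stood at 0.41 with the striatal covariate, and they were -0.94 and -0.67 with the mean level of the excitatory neuron list as covariate.

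Most antigen presentation and extracellular matrix genes lay below 0. Of 19 antigen presentation genes, 18 lay below 0 with a median of -0.18 and 0 passed the unadjusted threshold. Cd74, the chaperone of MHC class II, gave -0.01 ± 0.74 and H2-K1, an MHC class I chain, -0.12 ± 0.52. Of 20 matrix and fibroblast genes, 18 lay below 0, the median was -0.30, and 0 passed the unadjusted threshold. The fibrillar collagen genes Col1a1 (-0.71 ± 0.72), Col1a2 (-0.68 ± 0.71) and Col3a1 (-0.72 ± 0.93) had the lowest values and errors as large. Members of these lists share the libraries' injury level, so their signs are not independent. Without both libraries of low injury score the antigen presentation and matrix medians were -0.21 and -0.33. They turned to 0.35 and 0.27 with the striatal covariate and stood at -0.74 and -0.92 with the excitatory neuron covariate. The antigen presentation median also stood at 0.01 without 15-week high-fat library 1 and at 0.12 without 15-week control library 1, while the matrix median lay between -0.54 and -0.07 with a library left out.

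The spread of the injury lists was wider at 15 weeks. The mean of the activated phagocyte list was 5.13 ± 0.60 and 5.69 ± 0.27 log2 CPM on control and high-fat diet at 6 weeks (SD, n = 4 and n = 6). At 15 weeks it was 5.43 ± 0.79 and 5.72 ± 1.03 (SD, n = 4 and n = 6). The lowest libraries of the 15-week groups were at 4.27 and 3.68, against 2.90 ± 0.18 and 2.84 ± 0.04 in sham (SD, n = 3 each).

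**Figure D5:**
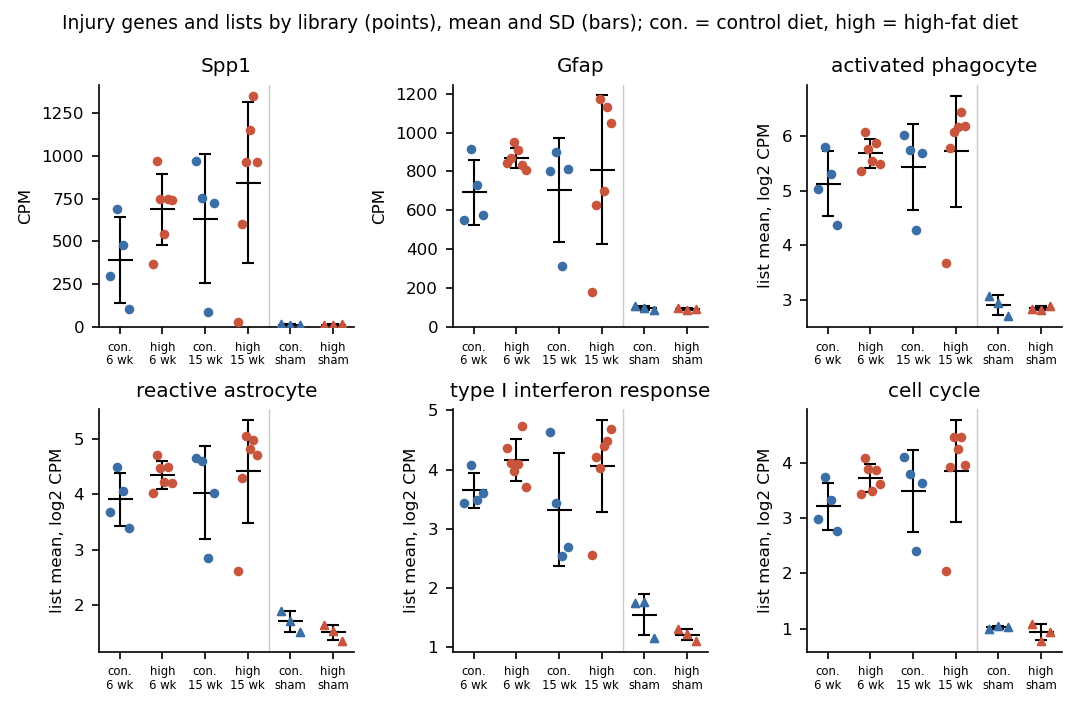
Levels in CPM of Spp1 and Gfap and mean log2 CPM of 4 injury lists, 1 point per library with mean and SD, in stroke (circles) and 6-week sham (triangles). High-fat means lie above control means in both arms, and 1 library in each 15-week group lies toward sham in the phagocyte and astrocyte panels.

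Lists of metabolic genes had medians from -0.08 (insulin and leptin signalling) to 0.19 (mitochondrially encoded genes). In the insulin and leptin list, 3 of 18 were below 0 at an unadjusted p under 0.05 and 1 was above. Irs1 (-0.26 ± 0.09) and Irs2 (-0.29 ± 0.13) encode the docking proteins of the insulin receptor. Irs1 had means of 23.6 and 24.4 CPM at 6 weeks and 29.0 and 24.9 CPM at 15 weeks on control and high-fat diet. Igfbp5, an IGF-binding protein, gave -0.44 ± 0.17. Foxo1, a transcription factor held inactive by insulin signalling, gave 0.60 ± 0.28, and 0.19 with the striatal covariate. The insulin receptor Insr (-0.04 ± 0.08) and the leptin receptor Lepr (-0.22 ± 0.37) did not pass, and the list median was -0.08.

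Among 22 tested fatty acid oxidation and PPAR target genes, 1 was above 0 at an unadjusted p under 0.05, Acadm, the medium-chain acyl-CoA dehydrogenase (0.24 ± 0.07; edgeR adjusted p = 0.925). It had means of 32.7 and 30.3 CPM at 6 weeks, with no overlap, and 29.4 and 31.8 CPM at 15 weeks. The list median was 0.02, and Cpt1a, which admits fatty acids to the mitochondrion, gave 0.03 ± 0.25. Of 20 cholesterol biosynthesis genes, 1 was above 0 at an unadjusted p under 0.05, Nsdhl (0.21 ± 0.09). Of 24 oxidative phosphorylation genes, 1 was above 0 at that threshold, Atp5h (0.18 ± 0.08), and the median was 0.06. The 9 tested mitochondrially encoded genes lay above 0 with a median of 0.19, and 0 passed the unadjusted threshold.

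Clock genes follow the time of day and glucocorticoid response genes the level of corticosterone, neither of which the labels give. Of 18 clock genes, 1 was below 0 at an unadjusted p under 0.05, Bhlhe40 (-0.53 ± 0.17), a repressor that is also induced by neuronal activity. Bhlhe40 had means of 57.9 and 61.2 CPM at 6 weeks and 82.6 and 60.2 CPM at 15 weeks, and its diets did not overlap at 15 weeks. Per1 gave -0.36 ± 0.22, Dbp -0.14 ± 0.18 and Nr1d1 -0.18 ± 0.21, and the list median was -0.15. Of 18 glucocorticoid response genes, 2 were below 0 at an unadjusted p under 0.05, Sult1a1 (-0.47 ± 0.19) and Zbtb16 (-0.40 ± 0.16). Fkbp5 (0.10 ± 0.15), Tsc22d3 (-0.12 ± 0.14) and Sgk1 (0.18 ± 0.24), which respond strongly to the hormone, did not pass, and the median was -0.03. In the heat shock list 1 of 16 was above 0 at an unadjusted p under 0.05, Hsp90b1 (0.22 ± 0.09). Of the 16, 14 lay above 0, and the median was 0.13, between 0.09 and 0.16 with a library left out.

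The remaining lists had medians from -0.18 to 0.08. In the list of homeostatic astrocyte genes, 1 of 14 was below 0 at an unadjusted p under 0.05, Ppp1r3g (-0.54 ± 0.26), a glycogen-targeting phosphatase subunit, and the median was -0.09. The other such lists had 0 members past the unadjusted threshold. Glial and vascular lists had medians of 0.08 (myelin and oligodendrocyte), -0.04 (oligodendrocyte precursor), 0.02 (endothelium and barrier) and -0.06 (activated endothelium). Immune lists had medians of -0.07 (neutrophil), -0.18 (lymphocyte, 4 of 16 members tested), -0.10 (complement) and 0.08 (cytokine and chemokine), with Il1b at 0.20 ± 0.67 and Ccl2 at 0.32 ± 0.75. The medians were -0.02 for synaptic receptor genes, -0.02 for cholesterol efflux, -0.02 for hypoxia and glycolysis, 0.00 for oxidative stress and -0.12 for small noncoding RNA.

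Markers of other tissue were checked for each group. Choroid plexus genes had a median of -0.97 over 7 tested members, and Ttr, the transthyretin gene that the choroid plexus expresses strongly, gave -5.14 ± 2.32 as the 1 member at an unadjusted p under 0.05. High-fat library 6 at 6 weeks held 884 CPM of Ttr, while the next highest 6-week high-fat library held 47.6 CPM. Without that library the list median was -0.01 and Ttr stood at -1.51. Blood cell genes lay above 0 in 5 of 5 tested members with a median of 0.31, and 0 passed the unadjusted threshold. Meninges (median -0.09), hippocampus (-0.22) and hypothalamus and thalamus (0.06) had 0 members past it. The hippocampus list stood at a mean level of 3.45 log2 CPM in high-fat library 6 at 6 weeks and at 2.87 in high-fat library 6 at 15 weeks, against at most 2.05 in the other stroke libraries. Its median was 0.43 without the first of these and -0.79 without the second. The meninges median was 0.32 with the striatal covariate. The part of these tissues in the results above was not tested beyond the fits given.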

How the data were processed

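Total RNA from cortex was sequenced as stranded paired-end libraries, per the labels. Each library has a deposited table of raw counts, whole numbers keyed by Ensembl gene, with no normalization by the authors visible in the values. Per the submitters' processing notes, mm9, STAR, Trim Galore, HTSeq and featureCounts were used, and their roles, versions and annotation are not given in the sources used here. The files hold gene identifiers and no coordinates. Symbols were found for 37607 of 39179 identifiers (95.99%) in GENCODE M21. The 5 summary entries of each table held 45.69% to 58.16% of its counts and were left out. No library was a copy of another of its group: the chi-square of each pair was 3.52 to 76.2 times that of counting error.

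Genes passed filterByExpr with a minimum count of 10 in the 20 stroke libraries. Counts were scaled by TMM and fitted with 1 mean per group by edgeR 4.0.16 (robust quasi-likelihood, R 4.3.3), the interaction contrast was tested, and p-values were adjusted by Benjamini-Hochberg over all genes at 0.05. The common dispersion was 0.021, a coefficient of variation of 0.145. SEs were obtained from the log2 value and the F statistic. CPM values are scaled by TMM over all 26 libraries, and list levels average the members' log2 CPM (prior count 2). The injury score is the mean level of the activated phagocyte and reactive astrocyte lists, scaled between the means of sham and of 6-week stroke libraries. The share outside genes is taken over fragments counted inside or outside genes. The fit was tested on simulated data.

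The question, the members and the 41 gene lists (617 of 668 members tested) were chosen with earlier results of these data known. Lists overlap. Genes were named by the smallest p, 12 per direction, with a mean of at least 5 CPM in a group, and up to 4 per list by p. Chat, Spp1, Gfap, Drd2, Ppp1r1b, further immediate early genes and list members given with values are outside that rule and were chosen after their values were seen. Alternatives were RLE size factors, DESeq2 1.42.0, voom in limma 3.58.1, no filter and a minimum count of 50, all 26 libraries, a non-robust fit, 1 surrogate variable (sva 3.50.0), a fit with haemoglobin, mitochondrial and ribosomal RNA genes removed, list means or the share outside genes as covariates, and libraries left out. Genes near the filter rest on about 10 counts, so small differences in them were not detectable. Counts of paralogs with near-identical sequence are uncertain.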

Additional observations from a re-analysis of the deposited data

Results flagged for a closer look

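In 152 groups of 4 or 6 libraries (38 measures), the highest or lowest library was tested for a gap to the rest that Dixon's criterion would call at 95%, which chance alone gives in about 1 in 20 groups. It was met 16 times. The measures overlap, since the injury score is built from the activated phagocyte and reactive astrocyte lists, which were also tested. Several lists also share a library's injury level. The flags are therefore not independent, and their number cannot be weighed against that share.

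Most of these were in 15-week high-fat library 1, which lay below the other 5 libraries of its group. Its injury score was 0.349 (the others 1.083 to 1.347). Its list levels in log2 CPM were 3.68 for activated phagocyte genes (the others 5.78 to 6.44), 2.61 for reactive astrocyte genes (4.29 to 5.06), 2.55 for type I interferon response genes (4.02 to 4.68) and 2.04 for cell cycle genes (3.93 to 4.47). The same library had levels of 4.82 for insulin and leptin signalling genes (5.25 to 5.48) and 3.56 for fatty acid oxidation genes (4.23 to 4.55). Arc was at 105 CPM in it (168 to 197) and Ap1s2 at 57.5 CPM (38.9 to 43.8), the highest of its group.

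In 15-week control library 3, Gfap was at 311 CPM (the others 801 to 901). Control library 4 at 15 weeks had 29.2 CPM of Ap1s2 (34.5 to 35.0). In 6-week high-fat library 6, the choroid plexus list was at 4.52 log2 CPM (0.44 to 1.35), the mitochondrial share at 10.16% (7.507% to 8.251%) and Neurod6 at 94.8 CPM (72.7 to 80.5). The circadian clock list was at 5.37 log2 CPM in 6-week control library 4 (5.54 to 5.55), and the astrocyte homeostatic list at 6.66 in 15-week high-fat library 3 (6.81 to 6.89).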

How the results depend on the processing

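The count of called genes stayed at 0 under all 35 alternatives, with any library left out (0 to 0) included. Genes at an unadjusted p under 0.05 (754) numbered 1135 with no filter on low counts, 1237 with 1 surrogate variable, 1187 with the activated phagocyte covariate, 1988 with the excitatory neuron covariate and 1219 with the striatum and phagocyte covariates, and 495 to 1097 with a library left out. Striatal genes above 0 at that threshold (8) numbered 5 with no filter, 2 with voom and 5 with the phagocyte covariate. They numbered 4 without both libraries of low injury score and 0 to 12 with a library left out. With the striatum covariate, and with the striatum and phagocyte covariates, they numbered 0. Immediate early genes below 0 at that threshold (8) numbered 6 to 12, both over the libraries left out and over the other alternatives. With a library left out, the difference of differences of the share outside genes (1.65) lay between 0.246 and 3 percentage points, and that of the mitochondrial share (0.88) between 0.578 and 1.28, the last without 6-week high-fat library 6 (exact permutation p = 0.0418).

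Signs changed for 6 of 73 named genes, all with an adjusted p above 0.05. With the striatum covariate Apoe (-0.20) stood at 0.02, Spp1 at 0.24, Drd2 at -0.17 and Ppp1r1b at -0.07, and with the phagocyte covariate added Drd2 stood at -0.19 and Ppp1r1b at -0.06. With the excitatory neuron covariate Mx1 stood at -0.11. With a library left out, Gfap lay between -0.37 (15-week control library 3) and 0.07 (15-week high-fat library 1), and at 0.01 without 15-week control library 2. The cause was not tested. No paired analysis was possible because the labels give no replicate numbers that groups share. The striatum covariates were chosen after seeing the data.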
